A study of Mus musculus with 87 samples.

Results

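Subunit genes of the GABA-A receptor were followed through 7 tissues of 6 inbred mouse strains: Gabra2, Gabra3, Gabra4, Gabra6, Gabrb1, Gabrb2 and Gabrd. These 7 genes were taken by name, and every Affymetrix MG_U74Av2 probe set annotated to 1 of them alone was used. This gave 7 of the 12422 probe sets that are not controls, for 6 of the 7 genes. No probe set is annotated to Gabra4 alone, so Gabra4 was not analysed here. Gabra2 (101215_at), Gabra3 (94645_at), Gabrb1 (92749_at), Gabrb2 (101138_at) and Gabrd (99342_at) each had 1 probe set bright enough to be tested, and Gabra6 had a pair (92939_at and 92940_s_at) that was not.

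The study hybridised RNA of 8-week-old male mice of the inbred strains A/J, C57BL/6J, DBA/2J, FVB/NJ, C3H/HeJ and 129S6/SvEvTac, with no other genotype or agent given in the labels. The tissues were the pituitary gland, the bed nucleus of the stria terminalis (a cell group of the forebrain), the hippocampus, the hypothalamus, the periaqueductal gray of the midbrain, the amygdala and the cingulate cortex. The 87 arrays fell into 42 groups of strain and tissue, 39 of 2 arrays and 3 of 3 arrays, each array holding RNA of 1 to 5 mice. For 26 arrays, those of cingulate cortex and amygdala, 50 ng of RNA was amplified over 2 rounds, and for the 61 arrays of the other 5 tissues 10 µg was labelled in 1 round, so tissues were compared only within a labelling protocol. Storage was split in the same way, with RNALater for those 26 arrays and freezing for the 61.

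The GABA-A receptor is a ring of 5 subunits around a chloride channel that opens when GABA binds, and it carries most fast inhibition in the brain. Alpha subunits set the pharmacology and, with beta subunits, form the GABA site, so that beta subunits are found in nearly all receptors. A gamma subunit anchors most receptors at synapses, while the delta subunit takes its place in receptors outside synapses that carry a steady current. Many subunit genes lie in clusters, and in the RefSeq gene order of the assembly GRCm38.p6 the neighbours on chromosome 5 run Gabrg1, Gabra2, Cox7b2, Gabra4, Gabrb1. On chromosome 11 Gabra6 adjoins Gabrb2, on chromosome X Gabra3 adjoins Gabrq, and on chromosome 4 Gabrd lies between Prkcz and Cfap74.

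Array medians ranged from 42.3 to 66.1 intensity units and replicates of a group correlated at 0.946 to 0.991 (Pearson's r across probe sets, 48 pairs). The ratio of the 3' to the 5' Gapdh probe set was 2.68 ± 0.35 on the log2 scale after 2 rounds (SD, n = 26) and -0.07 ± 0.12 after 1 round (SD, n = 61). Strain profiles of 83 arrays matched their labels. The other 4 carry the labels FVB/NJ and C3H/HeJ and come from the pituitary gland, and each correlated at 0.862 to 0.891 with the other label's profile and at -0.357 to -0.327 with its own. Of the 87 arrays 81 name an animal that also gave another tissue, and both C57BL/6J hypothalamus arrays and both FVB/NJ bed nucleus arrays name the same animal as their replicate, so p-values can measure a spread that is partly technical. The arrays were scanned on 17 days, with strains spread unevenly over the days. Among tissues labelled in 1 round, summed markers of the hippocampus (7 of 8 genes with a probe set) were 1950 to 2370 in hippocampus arrays and at most 1440 elsewhere, those of the midbrain (6 of 8) were 1010 to 1990 in periaqueductal gray arrays and at most 830 elsewhere, and pituitary hormone genes (7 of 8) were 53200 to 66600 in pituitary arrays and at most 8770 elsewhere. Markers of the hypothalamus (6 of 8) summed to 6810 to 14500 in hypothalamus arrays, 3190 to 7710 in bed nucleus arrays and, through Pomc, 12300 to 16100 in the pituitary gland. Of 7 cortical genes 2 have a probe set, and they summed to 575 to 1760 in the amygdala and 2010 to 3090 in the cingulate cortex. The labelled bed nucleus was checked against 8 genes of the striatum and bed nucleus, of which 3 (Drd2, Tac1, Penk) have a probe set. Their summed intensity was 771 to 2500 in bed nucleus arrays (median 1690), a range that overlapped the 1480 to 2330 of the hypothalamus (median 1690) and the 1570 to 2040 of the periaqueductal gray (median 1870). Marker genes of the thalamus (5 of 8 with a probe set), in contrast, summed to 1680 to 4740 in bed nucleus arrays and to at most 813 in any other array. These markers go against the label, and the name bed nucleus is used below only as the label of these arrays.

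The promoters of Gabra2 and Gabrb2 are shown because these genes gave the strain differences described below. Each sequence is the 250 bases before the RefSeq start (GRCm38.p6, the genome of the C57BL/6J strain), on the gene's strand, with motif matches in capitals, and Gabrb2 is given by the first of its 3 starts. Gabra2 is at chr5:71095850-71096099 on the minus strand and Gabrb2 at chr11:42420190-42420439 on the plus strand.
Gabra2: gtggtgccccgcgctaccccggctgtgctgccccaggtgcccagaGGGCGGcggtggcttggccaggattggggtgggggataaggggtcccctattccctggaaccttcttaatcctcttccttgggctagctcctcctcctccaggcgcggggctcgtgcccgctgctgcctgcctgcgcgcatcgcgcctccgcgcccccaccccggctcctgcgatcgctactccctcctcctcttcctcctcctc
Gabrb2: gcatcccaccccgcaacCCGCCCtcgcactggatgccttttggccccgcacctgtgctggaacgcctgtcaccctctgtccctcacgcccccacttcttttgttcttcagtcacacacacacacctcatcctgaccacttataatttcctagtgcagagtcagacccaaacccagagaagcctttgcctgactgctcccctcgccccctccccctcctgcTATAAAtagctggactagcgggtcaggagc
Searched on both strands were the GC box GGGCGG, the TATA box TATAAA, the cyclic AMP response element TGACGTCA and the EGR site GCGTGGGCG, which occur in 32.7%, 12.4%, 1.55% and 0.536% of 32851 mouse promoter windows of this length. The Gabra2 window (70% G and C) held 1 GC box, beginning 205 bases before the start, and no other match. The Gabrb2 window (58.8% G and C) held a GC box on the opposite strand, beginning 233 bases before the start, and a TATA box 30 bases before it. Windows were at hand for 6 of the 7 genes. How these letters differ between the strains was not analysed here.

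Differences below are on the log2(intensity + 16) scale with their standard error (SE), from limma fitted over all groups, and intensities given as group levels are means on that scale transformed back, except that means within a scan day are plain means of intensity. A difference was called at an adjusted p below 0.05, with Benjamini-Hochberg adjustment over all 8460 probe sets tested and no minimum fold. Because probe sets bind differently, levels are compared between tissues or strains and not between genes. Whether a probe set binds the RNA of all strains equally was not tested. A strain difference in intensity, for any gene below, therefore cannot be told apart from a strain difference in probe binding. In bulk tissue, fewer cells of a type and less RNA per cell cannot be told apart.

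Gabra2 encodes an alpha subunit of receptors that bind benzodiazepines, and it differed most clearly in C57BL/6J. In the 4 brain regions labelled in 1 round it was lower in C57BL/6J than in the other strains by 1.12 on the log2 scale, a 2.17-fold difference. In the hippocampus the C57BL/6J arrays read 102 and 128, against a lowest of 271, a median of 318 and a highest of 398 in the 10 arrays of the other strains. In the hypothalamus the C57BL/6J arrays lay at 93.2 and just above it, with a group level of 96.6, against 187, 227 and 239 (lowest, median and highest of 10 arrays) in the others. The C57BL/6J arrays stood below every other array in both regions, a pattern that 4.33% of the probe sets tested shared in the hippocampus and 7.93% in the hypothalamus.

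In the periaqueductal gray Gabra2 read 35.3 and 51.1 in C57BL/6J, against 90.7, 116 and 148 (lowest, median and highest of 10 other arrays). In the bed nucleus it read 82.2 on both C57BL/6J arrays, against 93.6, 167 and 192 (lowest, median and highest of 11 other arrays). The groups did not overlap in these regions either, where 2.38% and 3.51% of the probe sets tested had both C57BL/6J arrays lowest. The lowest of the other bed nucleus arrays was replicate 2 of C3H/HeJ, which also had the highest sum of thalamus markers, 4740, against 2210 on each C57BL/6J array.

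**Figure D1:**
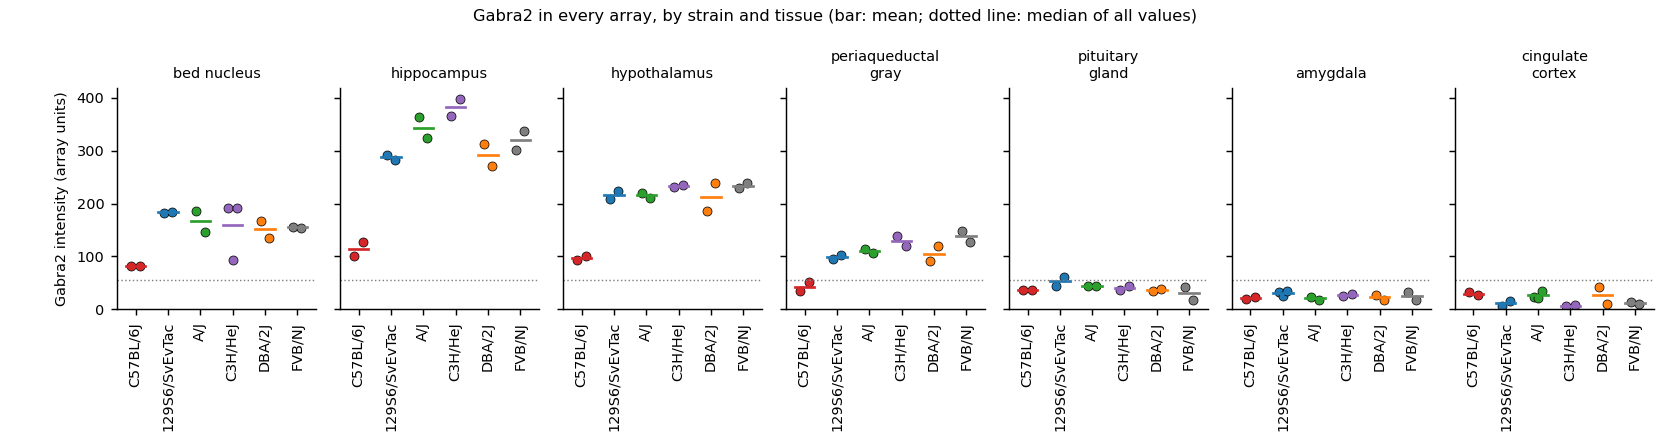
Gabra2 intensity in every array (points) by strain and tissue, with group means (bars) and the median of all values on all arrays (dotted line, 55.4). Both C57BL/6J arrays lie below every other array in the hippocampus, hypothalamus, bed nucleus and periaqueductal gray, and all amygdala and cingulate cortex arrays lie under the dotted line.

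The Gabra2 difference between C57BL/6J and the other strains was called in each of these regions in limma. It was -1.38 ± 0.18 in the hippocampus (adjusted p = 3.81e-07, where 1.11% of probe sets were called lower), -1.16 ± 0.18 in the periaqueductal gray (adjusted p = 2.99e-05, 0.520%), -1.08 ± 0.18 in the hypothalamus (adjusted p = 8.22e-05, 2.03%) and -0.85 ± 0.18 in the bed nucleus (adjusted p = 0.00302, 1.16%). The bed nucleus call was lost when C57BL/6J replicate 1 (adjusted p = 0.125) or replicate 2 (adjusted p = 0.153) was left out, with the difference unchanged at -0.85, and the periaqueductal gray call without replicate 1 (-0.97, adjusted p = 0.0602). Over the 4 regions together the level was 79.8 in C57BL/6J and 192 in the other strains (-1.12 ± 0.09, adjusted p = 5.34e-14, where 9.03% of probe sets were called lower). Summed markers of neurons of any kind (4 of 6 genes with a probe set) were 5060 to 8060 in the C57BL/6J arrays of these regions and 4720 to 8610 in those of the other strains. Choroid plexus markers (3 of 6), which ran high in several bed nucleus arrays, summed to at most 762 in C57BL/6J and at most 5090 in the other strains, and their part in the difference was not tested.

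In the other tissues Gabra2 was dim and the C57BL/6J arrays lay among the rest. It read 37.5 and 36.2 in the pituitary gland of C57BL/6J, against 18 to 61.2 in the other strains (-0.09 ± 0.18, adjusted p = 0.93 in limma), and 19.4 and 22.6 in the amygdala, against 17.7 to 35.3 (-0.15 ± 0.18, adjusted p = 0.678). In the cingulate cortex it read 33.1 and 26.8 in C57BL/6J and 5.84 to 42.6 in the other strains, which limma called higher in C57BL/6J (+0.57 ± 0.18, adjusted p = 0.0224, where 8.83% were called higher). All 13 cingulate arrays lay below the median of all values, 55.4, and the call was lost without either C57BL/6J replicate (adjusted p = 0.217 and 0.0713).

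Averaged over the 7 tissues, Gabra2 had a level of 53.2 in C57BL/6J and 88.1 in the other strains (-0.59 ± 0.07, adjusted p = 1.96e-09 in limma), lower in 6 of 7 tissues. At this comparison 10.1% of the probe sets were called lower. Arrays scanned on the same day were compared as well. Among hippocampus arrays of 1 day the mean intensity was 115 in C57BL/6J and 325 in 6 arrays of 4 other strains, and among bed nucleus arrays of 1 day it was 82.2 in C57BL/6J and 163 in 4 arrays of 2 other strains. Against 2 arrays of 129S6/SvEvTac of the same day, C57BL/6J differed by -1.04 in the hypothalamus and by -0.97 in the periaqueductal gray. In the dim tissues the same-day difference was -0.11 in the pituitary gland (36.8 against 41.1, 2 arrays of 1 strain). It was +0.49 in the cingulate cortex (30 against 16.7, 1 array). With scan day as a term in an additive fit the difference was -0.74 (adjusted p = 6.79e-05). An additive fit of strain and tissue, with no scan day, that left out the 4 pituitary arrays going against their labels gave -0.62 (adjusted p = 3.71e-06).

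Among the other 5 strains Gabra2 levels lay close together. Over the 4 regions limma called C57BL/6J lower than each of the other strains, by 1.21 against C3H/HeJ (adjusted p = 8.91e-12) down to 1.01 against DBA/2J (adjusted p = 3.22e-09). None of the 10 pairs among the others was called (adjusted p = 0.447 to 0.985). C3H/HeJ (+0.33 ± 0.09, adjusted p = 0.0125) and FVB/NJ (+0.29 ± 0.09, adjusted p = 0.0414) were called higher than the mean of their other 5 strains, a mean that includes C57BL/6J (2.54% and 2.99% of probe sets were called higher). Over the 7 tissues A/J was called higher as well (+0.19 ± 0.07, adjusted p = 0.045, where 7.77% were called higher), a call that was lost in 37 of 87 fits that left out 1 array each and is set against a mean that includes C57BL/6J. It was also lost with shared animals as a random block (adjusted p = 0.132).

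By tissue, Gabra2 ran from the hippocampus down to the pituitary gland. Intensities were lowest 102, median 306 and highest 398 in the hippocampus, 93.2, 222 and 239 in the hypothalamus, and 82.2, 156 and 192 in the bed nucleus. They were 35.3, 110 and 148 in the periaqueductal gray and 18, 40.4 and 61.2 in the pituitary gland. Each step in this order was called in limma, the smallest being the bed nucleus against the hypothalamus (-0.39, adjusted p = 0.00161). The amygdala (17.7 to 35.3) and the cingulate cortex (5.84 to 42.6), labelled in 2 rounds, were below 55.4 on every array, which cannot be taken as low expression. The amygdala was called above the cingulate cortex (+0.29 ± 0.09, adjusted p = 0.0128), in 3 of 6 strains and not without DBA/2J cingulate replicate 2 (+0.20, adjusted p = 0.0778).

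**Figure D2:**
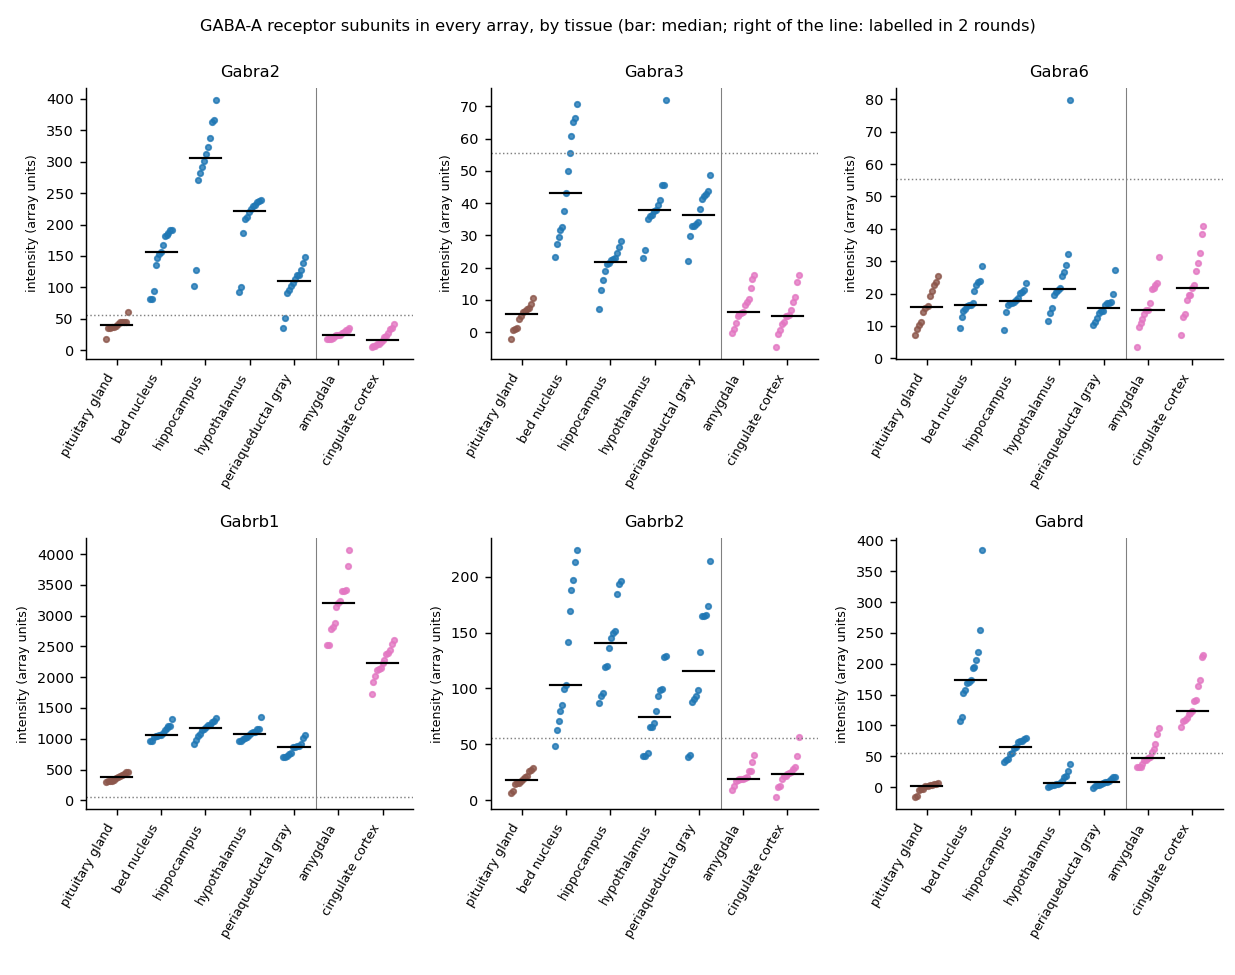
Intensity of 6 subunit genes in every array (points) by tissue, with medians (black bars) and the median of all values (dotted line). Pituitary arrays (brown) are lowest or near 0 for Gabra3, Gabrb1, Gabrb2 and Gabrd, Gabrd stands out in the bed nucleus, and the tissues right of the vertical line were labelled in 2 rounds (Gabra6 is shown by 92940_s_at).

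Gabra3 encodes an alpha subunit prominent in brainstem and monoamine neurons, and its probe set was dim throughout. It was tested only because 129S6/SvEvTac bed nucleus (65.8), 129S6/SvEvTac hypothalamus (57.6) and C57BL/6J bed nucleus (55.7) had group levels above 55.4. Calls that set these groups high are therefore a description. Intensities were 23.2, 43.2 and 70.8 (lowest, median, highest) in the bed nucleus, 23, 37.7 and 72 in the hypothalamus, 22, 36.3 and 48.8 in the periaqueductal gray and 7.15, 21.8 and 28.4 in the hippocampus. The first 3 regions could not be separated in limma (adjusted p = 0.311 to 0.725 between pairs), while the hippocampus was lower than the mean of the other 3 by 0.62 ± 0.09 (19.9 against 39.2, adjusted p = 3.63e-08). Gabra3 in the pituitary gland (-2.05 to 10.6), the amygdala (-0.19 to 17.6) and the cingulate cortex (-4.47 to 17.8) lay near 0. The last 2 were labelled in 2 rounds, so low readings there cannot be taken as low expression.

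Strain differences of Gabra3 were small. A/J was lower than the other strains over the 7 tissues (14.5 against 20, -0.24 ± 0.08, adjusted p = 0.0257 in limma, where 7.03% of probe sets were called lower), in 6 of 7 tissues. The call was lost when 1 of 5 A/J arrays was left out (amygdala replicate 1, bed nucleus replicate 1, hypothalamus replicate 2, periaqueductal gray replicate 1 or pituitary replicate 2, adjusted p up to 0.0809), and with shared animals as a random block (adjusted p = 0.109). Over the 4 brain regions labelled in 1 round, 129S6/SvEvTac arrays read 19, 43.9 and 72 (lowest, median, highest of 8) and A/J arrays 22, 24.3 and 34.3 (of 8). The ranges overlapped, and limma called 129S6/SvEvTac higher than A/J (+0.51, adjusted p = 0.00729) and higher than the mean of the other strains (+0.32 ± 0.10, adjusted p = 0.0419, where 3.70% were called higher). Its groups helped Gabra3 to be tested, so these calls are a description. In the bed nucleus the 6 arrays of the 129S6/SvEvTac scan day, with C57BL/6J and C3H/HeJ, read 43.2 to 70.8. A C3H/HeJ array of another day read 50, and the A/J, FVB/NJ and DBA/2J arrays, all of other days, read 23.2 to 37.7. Against same-day arrays 129S6/SvEvTac differed by +0.17 there, beside +0.57 in limma. Strain and scan day cannot be told apart there for A/J.

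Gabra6 encodes the alpha subunit of cerebellar granule cells, a tissue not among those sampled, and its probe sets were at background on nearly every array. Every array but 1 read 40.9 or less on both probe sets. That array, 129S6/SvEvTac hypothalamus replicate 1, read 84.8 on 92939_at and 79.7 on 92940_s_at, against 13.0 and 15.6 on replicate 2. The summed intensity of 8 cerebellar marker genes (of 11 listed) was 1860 on it and 1290 to 1700 on the other 11 hypothalamus arrays. Pvalb (621, against 281 to 402), Car8 (86.8, against 23.2 to 52.6), Neurod1 (61, against 19.4 to 41.1) and Cdh15 (65.1, against 30.8 to 62.2) were above the other arrays, while Cbln1, Pcp2, Zic1 and Zic2 lay within their range. The part of cerebellar tissue in this reading was not tested.

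Gabrb1 encodes a beta subunit, and its probe set was far above background in every array. In tissues labelled in 1 round its intensity was lowest 913, median 1170 and highest 1340 in the hippocampus, 958, 1080 and 1350 in the hypothalamus, 959, 1070 and 1320 in the bed nucleus, and 701, 866 and 1070 in the periaqueductal gray. The pituitary gland was apart from all of them at 301, 376 and 465. The hippocampus, hypothalamus and bed nucleus could not be separated pair by pair in limma (adjusted p = 0.286 to 0.863), and the periaqueductal gray was lower than the mean of the other 3 (838 against 1110, -0.40 ± 0.05, adjusted p = 1.71e-08). In the tissues labelled in 2 rounds it read 2520 to 4060 in the amygdala and 1730 to 2600 in the cingulate cortex, a called difference of +0.50 ± 0.06 (adjusted p = 6.51e-09) with slightly overlapping ranges.

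Gabrb1 was not called in the F test of limma over strains (F = 2.68, adjusted p = 0.0749). In the comparison of single strains it was called lower in C57BL/6J (1090 against 1190, -0.13 ± 0.05, adjusted p = 0.041), lower in 5 of 7 tissues, a call that was lost when any C57BL/6J array was left out other than amygdala replicate 2, bed nucleus replicate 1, cingulate replicate 1 and pituitary replicate 1 (adjusted p up to 0.114). It was also lost with shared animals as a random block (adjusted p = 0.141). In the amygdala and cingulate cortex alone the level was 2270 in C57BL/6J and 2730 in the other strains. This difference was called in the limma fit of all arrays (-0.26 ± 0.09, adjusted p = 0.0241, where 11.5% of probe sets were called lower). The same fit did not call either tissue taken singly (-0.26 in each, adjusted p = 0.169 for amygdala arrays and 0.124 for cingulate arrays). A separate fit of only the tissues labelled in 2 rounds called no strain for any subunit. Gabrb1 lies on the same chromosome as Gabra2, with only Cox7b2 and Gabra4 between them in the gene order.

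Gabrb2 encodes the beta subunit that is most widespread in the adult brain, and it was lowest in DBA/2J and highest in C57BL/6J in several regions. In the periaqueductal gray it read 40.9 and 38.8 in DBA/2J, while C57BL/6J gave 165.9 and 213.6, 129S6/SvEvTac 164.6 and 173.8, C3H/HeJ 165.1 and 132.3, A/J 98.8 and 93.4, and FVB/NJ 90.2 and 87.8. In the bed nucleus it read 48.9 and 63.2 in DBA/2J, against 71.2 to 223 in the other strains. Both DBA/2J arrays were below every other array in these 2 regions, as for 2.96% of probe sets in the periaqueductal gray and 3.45% in the bed nucleus. In the hippocampus DBA/2J read 93.4 and 119.9, among the other strains' 86.8 to 196, and in the hypothalamus 40.1 and 65.2, among 39.3 to 129.

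The DBA/2J difference of Gabrb2 was -1.41 ± 0.25 in the periaqueductal gray (adjusted p = 0.00019 in limma, where 1.28% of probe sets were called lower) and -1.03 ± 0.25 in the bed nucleus (adjusted p = 0.0107, 1.62%). Over the 4 regions the level was 59.8 in DBA/2J and 119 in the other strains (-0.83 ± 0.13, adjusted p = 2.13e-06, where 3.26% were called lower). Over the 7 tissues it was 38.7 in DBA/2J and 60.8 in the other strains (-0.49 ± 0.09, adjusted p = 0.000119, 5.56%), lower in 6 of 7. C57BL/6J was higher than the other strains over the 4 regions (168 against 96.7, +0.71 ± 0.13, adjusted p = 3.14e-05, where 8.37% were called higher). A/J was called lower over the 4 regions (81 against 112, -0.40 ± 0.13, adjusted p = 0.0326, where 4.87% were called lower), but not over the 7 tissues (-0.25 ± 0.09, adjusted p = 0.0616). In the hippocampus 1 A/J array differed by +0.03 from 7 arrays of 4 other strains of its scan day. In the hypothalamus A/J read 42.7 and 39.3, and the C3H/HeJ arrays of the same days 65.4 and 99.4. Over the 7 tissues C57BL/6J was also called higher (70 against 54.2, +0.29 ± 0.09, adjusted p = 0.022, where 9.94% were called higher), but in 4 of 7 tissues only and not without C57BL/6J cingulate, hypothalamus, periaqueductal gray or pituitary replicate 2 (adjusted p up to 0.115), nor with shared animals as a random block (adjusted p = 0.0879).

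Gabrb2 intensities were also set against the scan day. Arrays of the C57BL/6J day and of other days overlapped in the hippocampus (93.4 to 196 and 86.8 to 152) and the hypothalamus (69.4 to 129 and 39.3 to 99.4). In the bed nucleus all 6 arrays scanned on the day of the C57BL/6J arrays read 141 to 223, and the 7 scanned on other days, DBA/2J among them, read 48.9 to 103. The share of all probe sets split in this way was not analysed here. Each strain but C3H/HeJ lay on 1 side of this split, so day and strain largely went together. The C3H/HeJ group was divided, with 213.1 and 223.5 on that day and 84.9 on another. The last of these arrays also had the lowest sum of thalamus markers of the 13, 1680, against 3090 and 4740 on the first 2, and the part of tissue content in this split was not tested. Compared with arrays of the same day, the C57BL/6J difference was +0.06 in the bed nucleus (192 against 187, 4 arrays of 2 other strains) and +0.46 in the hippocampus (195 against 138, 6 arrays of 4 other strains). In the periaqueductal gray (190 against 169, +0.14) and hypothalamus (114 against 98.7, +0.22) the same-day arrays were 2 of 1 strain, 129S6/SvEvTac. DBA/2J shared a day with other strains in the hippocampus, where its mean intensity was 107 and that of 6 arrays of 4 strains was 167 (-0.53). In the hypothalamus 1 FVB/NJ array of the DBA/2J day read 93.3, against 40.1 and 65.2 in DBA/2J, and in the bed nucleus and periaqueductal gray no array of another strain was scanned on a DBA/2J day, so strain and day cannot be told apart there. The DBA/2J arrays of these last 2 regions were scanned 1 time, and those of C57BL/6J and 129S6/SvEvTac 2 times. A/J periaqueductal gray arrays, also scanned 1 time, read 98.8 and 93.4. The part of the number of scans in these regions was not tested. With scan day as a term in an additive fit limma called neither strain: DBA/2J was -0.23 (adjusted p = 0.458) and C57BL/6J was -0.08 (adjusted p = 0.805), the other way round.

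**Figure D3:**
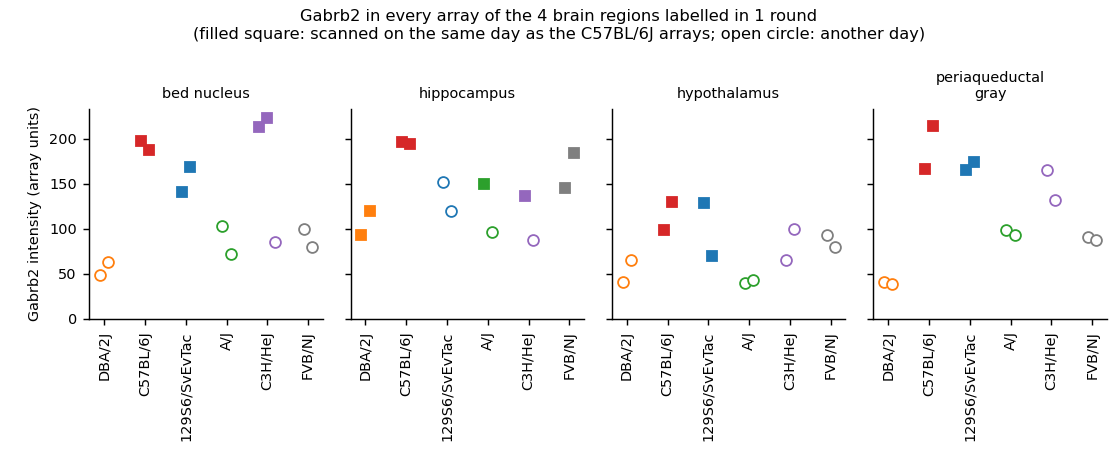
Gabrb2 intensity in each array of 4 brain regions by strain, with arrays scanned on the day of the C57BL/6J arrays as filled squares and arrays of other days as open circles. In the bed nucleus every filled square (141 to 223) lies above every open circle (48.9 to 103), while in the hippocampus, hypothalamus and periaqueductal gray the symbols overlap or meet.

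**Figure D4:**
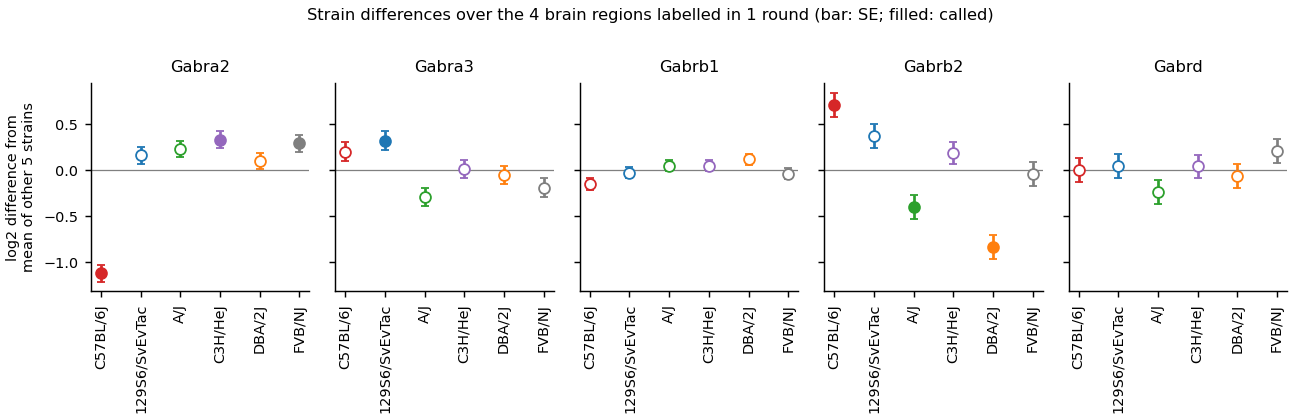
Difference of each strain from the mean of the other 5 strains over the 4 brain regions labelled in 1 round, on the log2(intensity + 16) scale, for the 5 subunit genes tested (points, with SE; filled where called at an adjusted p below 0.05). Gabra2 in C57BL/6J (-1.12) and Gabrb2 in DBA/2J (-0.83) and C57BL/6J (+0.71) lie farthest from 0, and no strain is called for Gabrb1 or Gabrd.

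By tissue, Gabrb2 read lowest 86.8, median 140 and highest 196 in the hippocampus, 38.8, 116 and 214 in the periaqueductal gray, 48.9, 103 and 223 in the bed nucleus and 39.3, 74.5 and 129 in the hypothalamus. In limma the hippocampus was not called apart from the bed nucleus (adjusted p = 0.207) or the periaqueductal gray (adjusted p = 0.105), and the hypothalamus was lower than the mean of the other 3 (74.4 against 119, -0.58 ± 0.11, adjusted p = 1.93e-05). The hippocampus was called higher than the mean of the other 3 (135 against 98.1, +0.40 ± 0.11, adjusted p = 0.00148), but not with scan day as a term (-0.10, adjusted p = 0.754). The pituitary gland (6.24 to 28.8), amygdala (9.19 to 40.4) and cingulate cortex (3.06 to 56.7) were dim.

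Gabrd encodes the delta subunit of receptors outside synapses, and it showed the widest range between tissues. It read lowest 107, median 173 and highest 384 in the bed nucleus, above every hippocampus array (40.9, 64.5 and 79). The hypothalamus (-0.64, 5.76 and 36.9), periaqueductal gray (-1.86, 7.42 and 16.6) and pituitary gland (-16.1, 1.92 and 5.79) lay at background. In limma the bed nucleus was higher than the mean of the other 3 regions (180 against 19.5, +2.46 ± 0.11, 5.51-fold on the scale used, adjusted p = 4e-25), and so was the hippocampus (61 against 32.4, +0.67 ± 0.11, adjusted p = 1e-06). The hypothalamus and periaqueductal gray could not be separated (adjusted p = 0.445).

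Within the bed nucleus the highest Gabrd readings came from the arrays with the highest thalamus markers. The 3 C3H/HeJ replicates read 254.7, 383.9 and 112.8 for Gabrd and 3090, 4740 and 1680 for the sum of 5 thalamus markers. The first 2 have the highest marker sums and the highest Gabrd readings of the 13 bed nucleus arrays, and the last has the lowest marker sum. The lowest Gabrd reading, 107, was on A/J replicate 2, whose marker sum was 2200. Gabrd is known to be abundant in thalamic relay neurons, and the part of thalamic tissue in the bed nucleus level was not tested. Gabrd was also lower in the amygdala (31.7, 46.6 and 96) than in the cingulate cortex (96.9, 124 and 214), a difference of -1.21 ± 0.13 (49.9 against 136, adjusted p = 1.17e-10 in limma). The ranges nearly met, at 96 and 96.9. No strain was called for Gabrd (adjusted p = 0.157 to 0.9), and its F test over strains gave 1.07 (adjusted p = 0.479).

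**Figure D5:**
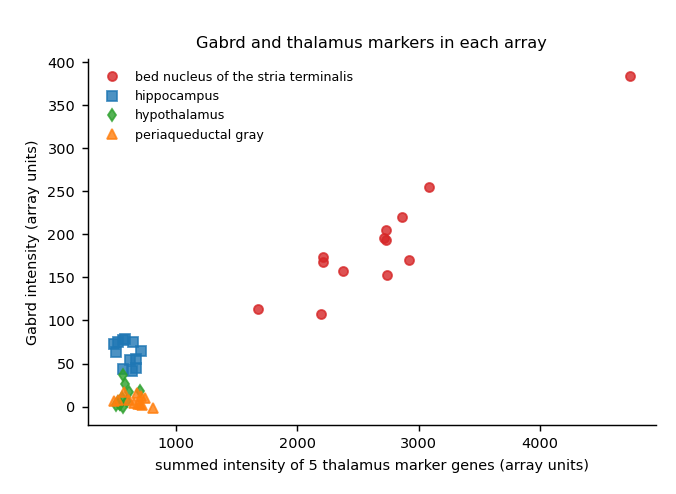
Gabrd intensity against the summed intensity of 5 thalamus marker genes, 1 point for each array of 4 brain regions. Bed nucleus arrays span marker sums of 1680 to 4740 and Gabrd of 107 to 384, and all other arrays lie at sums of at most 813.

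Set side by side, the tested subunits were lower in the pituitary gland and mixed among the brain regions. In the pituitary gland 5 of 5 fell against the 4 brain regions, where 37.5% of all probe sets tested were called lower and 42.4% higher. Gabra2, Gabra3 and Gabrb2 were tested only because groups of these 4 regions had levels above 55.4. Their lower pituitary levels, and the count of 5, are therefore a description. The differences were -1.72 for Gabra2 (39.5 against 167), -1.26 for Gabra3 (4.64 against 33.5), -1.44 for Gabrb1 (369 against 1030), -1.86 for Gabrb2 (17.8 against 106) and -1.58 for Gabrd (2.16 against 38.3), each with an adjusted p of at most 3.6e-19 in limma. The median of the 5 was -1.58, beside 0.04 over all probe sets. In an additive fit without the 4 pituitary arrays that go against their labels the differences lay between -1.90 for Gabrb2 and -1.21 for Gabra3, and all 5 were called. Summed markers of neurons of any kind were 1260 to 1630 in the pituitary gland and at least 4720 in the 4 regions, and their part in these differences was not tested.

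The 4 region comparisons gave 14 calls of 20, beside 34.8% over all probe sets. In the hippocampus Gabra2, Gabrb1, Gabrb2 and Gabrd were called higher and Gabra3 lower (21.7% higher and 27.3% lower over all probe sets). In the periaqueductal gray 3 fell and none rose (20.7% and 19.9%), namely Gabra2 (98.7 against 197, -0.90), Gabrb1 and Gabrd (6.9 against 56.5, -1.66). In the hypothalamus Gabra2 rose (194 against 158, +0.27 ± 0.08, adjusted p = 0.00629 in limma) and Gabrb2 and Gabrd fell (34.5% were called in either direction). That Gabra2 call was lost with each array scaled to a common median (+0.19, adjusted p = 0.0579) and with scan day as a random block (+0.22, adjusted p = 0.12). In the bed nucleus Gabra3 (42.7 against 30.8, +0.33 ± 0.09, adjusted p = 0.00467) and Gabrd rose and Gabra2 fell (144 against 175, -0.25 ± 0.08, adjusted p = 0.0179), beside 7.52% higher and 7.40% lower. Gabra3 was tested partly because of its bed nucleus groups, so its call there is a description. The Gabra2 call there was lost without replicate 2 of A/J, C3H/HeJ or DBA/2J (adjusted p up to 0.0625). Between amygdala and cingulate cortex 2 rose and 1 fell, beside 17.4% and 17.2%. With scan day as a term in an additive fit 8 of the 14 region calls were left, and those lost were Gabrb1, Gabrb2 and Gabrd in the hippocampus, Gabra2 in the hypothalamus, and Gabra2 and Gabra3 in the bed nucleus.

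Across strains the F test of limma called 3 of 5 subunits, beside 37.7% of all probe sets: Gabra2 (F = 14.8, adjusted p = 1e-07), Gabrb2 (F = 9.1, adjusted p = 3.19e-05) and Gabra3 (F = 3.27, adjusted p = 0.036). Single strains against the others gave 6 calls of 30, beside 13.5%. With shared animals as a random block Gabra2 in C57BL/6J (adjusted p = 2.91e-07) and Gabrb2 in DBA/2J (adjusted p = 0.00153) were left. The strain differences depended on the tissue for Gabra2 (interaction F = 4.29, adjusted p = 0.000111) and Gabrb2 (F = 2.83, adjusted p = 0.00574), beside 29.3%. Within the 4 brain regions labelled in 1 round none of the 5 showed an interaction (adjusted p = 0.204 to 0.897 in limma, Gabra2 F = 0.783 and Gabrb2 F = 1.84), beside 1.96%.

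Among the other receptor subunits 4 had a probe set of their own. Gabrg1, the gamma subunit gene next to Gabra2, showed no called difference in C57BL/6J (+0.02 ± 0.08, adjusted p = 0.885 in limma) and was lower in the hippocampus (-0.88 ± 0.09, adjusted p = 1.09e-11), where Gabra2 was higher. Gabrg3, another gamma subunit gene, was lower in C57BL/6J (-0.20 ± 0.06, adjusted p = 0.0143) and was not called in the pituitary gland (+0.05, adjusted p = 0.475). The rho subunit genes Gabrr1 and Gabrr2 were too dim to be tested.

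Of a list of 40 genes of GABA signalling, which holds Gabrg1, Gabrg3, Gabrr1 and Gabrr2, 22 had a probe set and 19 were tested, Gabrg1 and Gabrg3 among them. In the pituitary gland 16 fell and 1 rose, beside 37.5% lower and 42.4% higher over all probe sets. The deepest were Gad1 (-6.60), which makes GABA, and Slc32a1 (-5.64), which loads it into vesicles. In the hippocampus 11 fell and 4 rose, beside 27.3% lower and 21.7% higher, with Slc32a1 (-1.16) and Gad2 (-1.10) lowest. In C57BL/6J 3 rose and 2 fell, 1 of them Gabrg3, shares near the 9.94% higher and 10.1% lower over all probe sets. Dbi, whose product binds the benzodiazepine site, rose (+0.42 ± 0.06, adjusted p = 3.92e-08 in limma), as did the trafficking gene Trak2 (+0.22 ± 0.05, adjusted p = 0.00181) and Gad2 (+0.20 ± 0.07, adjusted p = 0.0244). Calls of the listed genes, Gabrg1 and Gabrg3 included, come from the main fit alone and were not put through the alternatives. Slc32a1 was lower in DBA/2J by 1.16 ± 0.06 (adjusted p = 2.83e-23) and was called in 4 other strains, each set against a mean that includes DBA/2J.

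The genes whose levels ran most like each subunit were found by Pearson's r over the 24 groups of 6 strains and 4 brain regions, which share arrays and differ mainly by region. They were Gng10 (r = 0.85), Ezr and Ccnl2 for Gabra2, Gas2 (r = 0.848), Timp2 and Camk2d for Gabra3, and Asxl1 (r = 0.844), Kif5a and Hnrnpul2 for Gabrb2. For Gabrb1 they were D430019H16Rik (r = 0.825), Unc5c and Pum2, and for Gabrd Tiam1 (r = 0.959), Kitl and the thalamus marker Prkcd (r = 0.908). With the tissue means removed, over 36 groups of 6 brain regions, Cap1 (r = 0.872), Gnb1 (r = 0.857) and Fignl1 (r = 0.706) were most like Gabra2.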

How the data were processed

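RNA of 87 arrays (Affymetrix MG_U74Av2, 1 colour) was measured. The authors deposited intensity values for all arrays on a linear scale with background subtracted, and 6.33% of the values lie below 0. Per the labels' protocols, RNA was extracted with Trizol and labelled in 1 round from 10 µg or in 2 rounds from 50 ng. Which software made the values, and how they were scaled, is not given in the sources used here. Scan day, number of scans and animals came from an experiment file for each array. Upper quartiles of the arrays were 164 to 185, and no array was rescaled. The number of arrays limits the precision.

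Negative values became 0 before log2(intensity + 16) was computed, which understates folds near background. The 12488 probe sets include 66 controls, which were not used. Tests were run where at least 1 group mean lay above 55.4, the median over all values, that is for 8460. The array's annotation gives 10833 probe sets 1 symbol, 396 several and 1193 none, and symbols were updated from RefSeq names.

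limma 3.58.1 in R 4.3.3 (statmod 1.5.0, data.table version 1.17.8) fitted a mean for each of 42 groups, with Benjamini-Hochberg adjustment over all probe sets tested. Each strain was set against the mean of the other 5 with tissues weighted equally. The fit was tested on simulated data with independent errors for each array. These held no effect of scan day or shared animals, so the test does not bear on those. Same-numbered replicates did not deviate together across groups (r = -0.443 to 0.486, median 0.0022, 861 pairs), so numbers were not taken as pairs. The subunits, the GABA gene list and the marker lists were chosen with earlier results of these data known, as were the genes named: all subunits, the 4 listed genes with the largest called difference in C57BL/6J, those called in over 3 strains, and the 3 most alike for each subunit. The genes named for the pituitary gland and hippocampus were picked after their values were seen. Alternatives changed the scaling, the number added, the filter, the blocks, the model and the arrays used.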

Additional observations from a re-analysis of the deposited data

Results flagged for a closer look

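The strain differences of a pair of subunits depended on the tissue. The interaction of strain and tissue had F = 4.29 for Gabra2 (adjusted p = 0.000111, limma) and F = 2.83 for Gabrb2 (adjusted p = 0.00574). Within the 4 brain regions labelled in 1 round the interaction had F = 0.783 for Gabra2 (adjusted p = 0.897) and F = 1.84 for Gabrb2 (adjusted p = 0.299). The C57BL/6J difference of Gabra2 was -1.12 ± 0.09 in those 4 regions and +0.21 ± 0.13 in the amygdala and cingulate cortex, where every array read at most 42.6. Labelling protocol, storage and tissue cannot be told apart between these sets.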

How the results depend on the processing

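Gabra2 in C57BL/6J over the 7 tissues was -0.59 and ranged from -1.12 to 0.21 over 17 alternatives, with only the tissues labelled in 2 rounds of opposite sign (+0.21, adjusted p = 0.463, limma), and from -0.62 to -0.56 when 1 array was left out. Gabrb2 in C57BL/6J turned to -0.30 (adjusted p = 0.404) in those tissues and to -0.08 (adjusted p = 0.805) with scan day as a term, which also turned Gabrb2 in the hippocampus to -0.10 (adjusted p = 0.754). Of the 6 strain calls, 2 were left with scan day or shared animals as a random block, in an additive fit of all arrays, with only arrays scanned 2 times, or without the 4 pituitary arrays that go against their labels, 1 with scan day as a term or with 42 group means, and 0 with 2-round tissues only. A separate fit of the 4 brain regions labelled in 1 round gave 10, where the fit of all arrays gave 7 over the same regions. The 3 subunits that differed among strains became 1 with 42 group means and 0 with 2-round tissues. The 2 interactions became 1 with scan day as a random block, and the 14 region calls became 8 with scan day as a term. Leaving out 1 array at a time gave 4 to 8 strain calls, 2 to 4 subunits differing among strains, 2 to 3 interactions, 13 to 15 region calls, 5 to 5 pituitary calls, 2 to 3 amygdala calls, and 4 to 5 tissues with Gabra2 called in C57BL/6J. Where this left a group with 1 array, its spread was taken from the other groups. The replicate block changed none of 74 results (Gabra2 in C57BL/6J -0.58). Scan day as a term could not be fitted for the interaction or within tissues. The additive fit, the 4 regions alone and the fit without those pituitary arrays were chosen after seeing the data, and the causes of these shifts were not tested. Dim probe sets (Gabra3, Gabra6) limit what can be seen near background.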

Other observations

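The C57BL/6J level of genes most like Gabra2 after tissue means were removed was low as well. The difference from the other strains over the 7 tissues was -2.03 for Gnb1 and -1.46 for Cap1, but -0.16 for Fignl1. These genes were ranked by likeness to a pattern in which C57BL/6J is low, so the values are a description.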
